A study of Mus musculus with 4 samples.

Results

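The proteins of oxidative phosphorylation are encoded by 2 genomes, and their transcripts were read here in mouse osteoclast precursors with and without the stretch-gated cation channel Piezo1. The members are the rows of the deposited expression table whose symbol marks a mitochondrially encoded gene (mt-) or a subunit of respiratory complex I, II, III or IV or of the ATP synthase, complex V (symbols of the Nduf, Sdh, Uqcr, Cox and Atp5 series). The rule used names only and no measured value. It took 91 of the 12799 genes, 12 mitochondrially and 79 nuclear encoded. The nuclear encoded rows comprised 36 of complex I, 4 of complex II, 8 of complex III, 14 of complex IV and 17 of complex V, with Ndufa4 counted in complex IV. The mitochondrially encoded rows comprised 6 of complex I, 1 of complex III, 3 of complex IV and 2 of complex V. Protein-coding symbols of the same series without a row, namely mt-Nd4l, Ndufa4l2, Cox4i2, Cox6a2, Cox7b2, Cox8b, Cox8c and Atp5s, and the mitochondrial rRNAs and tRNAs are not analysed here.

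Poly(A) RNA came from bone marrow-derived monocytes of 12-week-old female mice that had been cultured for 3 days toward the osteoclast, the bone-resorbing cell, under M-CSF (30 ng/mL) and RANKL (50 ng/mL), the cytokines that sustain and direct this lineage. Piezo1 knockout cells carried Csf1r-iCre, a recombinase driven by a promoter of the monocyte and macrophage lineage, on Piezo1 alleles flanked by loxP sites (n = 2). Control cells carried the same flanked alleles without the recombinase (n = 2), so effects of Csf1r-iCre and of Piezo1 loss cannot be told apart. The libraries of a genotype are biological replicates by the design text, which does not say whether animals were pooled.

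The mitochondrial genome encodes a small set of hydrophobic core subunits, which are translated inside the organelle and joined to imported nuclear encoded subunits. Complexes I, III and IV pump protons as electrons pass to oxygen, complex II feeds electrons in from succinate without pumping, and complex V uses the gradient to make ATP. Mitochondrially encoded mRNAs are cut from long transcripts of either strand of the circular genome, so that their levels share an origin, whereas each nuclear encoded subunit has a promoter of its own. Osteoclasts are rich in mitochondria, and oxidative metabolism increases as they form.

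Reads recovered from the deposited values of the 12799 genes summed to 14997205 and 18897927 in the knockouts and 15320308 and 14122118 in the controls. Reads that were not assigned to these genes are not known. Levels are in CPM, reads scaled to a common library size, in which 1 read was worth 0.0544 to 0.0700. Piezo1 itself had 61.0 and 56.2 CPM in the knockouts, against 430 and 384 CPM in the controls. The macrophage and osteoclast markers of the labelled cell type all had a row, with Ctsk, the collagen-degrading protease of osteoclasts, at 23577 and 26656 CPM in the knockouts and 23060 and 23825 CPM in the controls. Markers of B cells and of T and NK cells had no row.

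The mitochondrially encoded transcripts varied more between libraries of 1 genotype than between genotypes. Summed over the 12 rows they reached 13657 and 28160 CPM in the knockouts, against 31152 and 22410 CPM in the controls. Knockout 1 was the lowest library, while knockout 2 lay between the controls, so the groups overlapped. As shares of all signal these sums were 1.38% and 2.74% in the knockouts and 3.13% and 2.27% in the controls. The 79 nuclear encoded rows summed to 18184 and 19197 CPM in the knockouts and to 17173 and 19033 CPM in the controls. The lowest nuclear encoded sum was thus that of control 1, the library with the highest mitochondrially encoded sum.

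**Figure D1:**
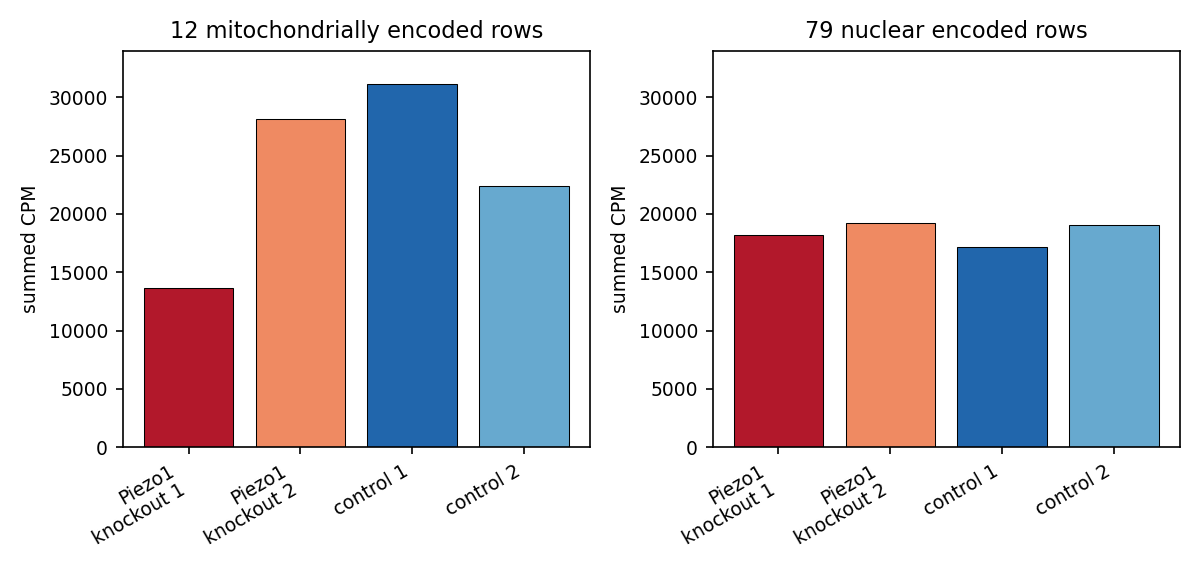
Summed CPM of the mitochondrially encoded rows (left) and the nuclear encoded rows (right) in each library, with 1 bar per library and the same linear axis from 0. The left bars run from 13657 CPM in knockout 1 to 31152 CPM in control 1, and the right bars from 17173 to 19197 CPM.

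The ratio of the mitochondrially encoded to the nuclear encoded sum was 0.751 and 1.47 in the knockouts, against 1.81 and 1.18 in the controls. Knockout 1 was the one library with less mitochondrially than nuclear encoded signal. The mean log2 ratio differed by −0.48 (knockout minus control), which is smaller than the SD between replicates of 0.57, and 2 libraries against 2 cannot give an exact permutation p below 0.333. Without knockout 1 the difference was 0.0054, and without knockout 2 it was −0.96. Without control 1 it was −0.17, and without control 2 it was −0.79. In bulk RNA, fewer cells of a type and less of a transcript per cell cannot be told apart.

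Of the 91 members, 89 reached 1 CPM in at least 2 libraries and were tested with limma, and 0 passed a Benjamini-Hochberg adjusted p of 0.05 over all 11781 genes, of which 0.161% passed. edgeR and DESeq2 on the recovered reads also called 0 members, with 0.161% and 0.535% of all genes called. At an unadjusted p under 0.05 limma had 3 members, edgeR 2 and DESeq2 1, where these tools had 4.9%, 4.81% and 2.68% of all genes. The groups did not overlap for 6 members that were lower and 11 that were higher in the knockouts, against 15.4% and 16.5% of all tested genes. As shares of the 89 tested members, these counts are below the background of the whole table.

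The 12 mitochondrially encoded rows shared part of their order over the libraries. Every one was lowest in knockout 1 and higher in control 1 than in control 2, though for mt-Atp8 the knockouts had only 7 and 9 reads. Knockout 2 lay between the controls in the 7 rows of 100 CPM or more on average. It was below both controls in mt-Co2 and mt-Atp8 and above both in mt-Nd3, mt-Atp6 and mt-Co3. The median log2 fold change of the 11 tested rows was −0.41, with all 11 negative, beside a median of 0.0016 over all tested genes. This median lay within the SD between replicates of 0.60. Without knockout 1 it was 0.11 and without knockout 2 it was −0.88, while it was −0.22 without control 1 and −0.64 without control 2. All 12 rows lie on 1 molecule and were read from the same libraries, so they are not independent.

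**Figure D2:**
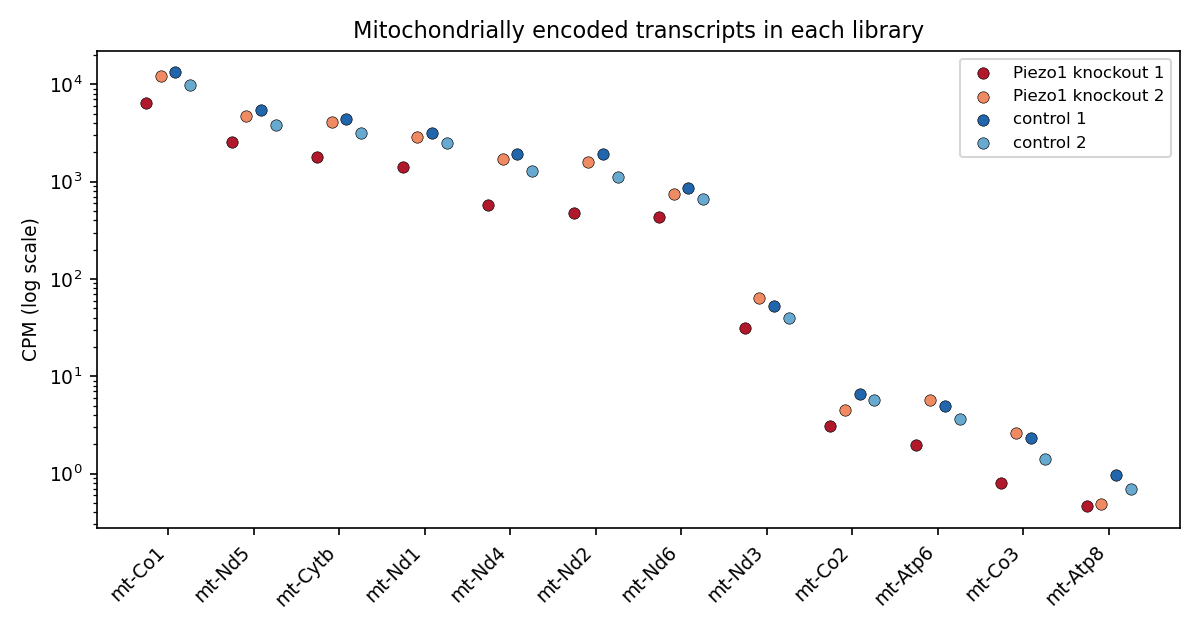
CPM on a log axis of each mitochondrially encoded row, ordered by mean level, with 1 point per library and no error bars. Knockout 1 has the lowest point of every row, and the rows from mt-Co1 to mt-Nd6 lie orders of magnitude above mt-Co2, mt-Atp6, mt-Co3 and mt-Atp8.

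Among the complex I subunits of the mitochondrial genome, which form the proton-pumping membrane arm, mt-Nd1 (chromosome M, 2751 to 3707, plus strand, GRCm38) had 1423 and 2894 CPM in the knockouts, against 3154 and 2471 CPM in the controls. mt-Nd2 (3914 to 4951) had 481 and 1603 CPM in the knockouts, against 1905 and 1128 CPM in the controls. mt-Nd4 (10167 to 11544) had 574 and 1700 CPM in the knockouts, against 1941 and 1274 CPM in the controls. In each of these rows knockout 1 was below both controls and knockout 2 lay between them. Their log2 fold changes were −0.46 (SE 0.31), −0.74 (SE 0.50) and −0.67 (SE 0.45).

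mt-Nd5 (11742 to 13565) had 2554 and 4721 CPM in the knockouts, against 5499 and 3859 CPM in the controls (log2 fold change −0.41, SE 0.30). mt-Nd6, the subunit gene on the minus strand (13552 to 14070), had 438 and 750 CPM in the knockouts, against 862 and 670 CPM in the controls (−0.41, SE 0.24). mt-Nd5 and mt-Nd6 overlap at their ends on opposite strands, and the sources used here do not state whether counting used strand. Reads of the opposite transcript therefore cannot be told apart from those of mt-Nd6. mt-Nd3 (9459 to 9806) was far lower, at 31.7 and 63.2 CPM in the knockouts and 53.1 and 39.9 CPM in the controls, and knockout 2 was its highest library. Its log2 fold change was −0.04 (SE 0.29) by limma and 0.03 by edgeR and DESeq2.

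mt-Cytb, the catalytic cytochrome b of complex III (14145 to 15288), had 1785 and 4154 CPM in the knockouts, against 4449 and 3176 CPM in the controls (log2 fold change −0.47, SE 0.36). mt-Co1, which carries the oxygen-reducing centre of complex IV (5328 to 6872), was the most abundant member at 6365 and 12262 CPM in the knockouts, against 13273 and 9780 CPM in the controls (−0.37, SE 0.33). In both rows knockout 1 was lowest and knockout 2 was between the controls. The limma adjusted p was 0.99975 for all tested mitochondrially encoded rows but mt-Co2. Without knockout 2, knockout 1 stands alone and is assumed to vary like the controls. The largest log2 fold changes among the abundant rows were then −1.61 for mt-Nd2, −1.45 for mt-Nd4, −1.07 for mt-Cytb and −0.97 for mt-Nd1. Without knockout 1, the median of the tested mitochondrially encoded rows was 0.11.

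The drop in knockout 1 was uneven along the genome. Among the 7 rows of 100 CPM or more on average, the knockout 1 level over the knockout 2 level was 0.300 for mt-Nd2, 0.338 for mt-Nd4, 0.430 for mt-Cytb, 0.492 for mt-Nd1, 0.519 for mt-Co1, 0.541 for mt-Nd5 and 0.584 for mt-Nd6. Control 2 over control 1 ran between 0.592 for mt-Nd2 and 0.784 for mt-Nd1. mt-Nd2 and mt-Nd4 were thus the 2 lowest ratios in knockout 1 over knockout 2, and mt-Nd4, at 0.656, was next to mt-Nd2 in the controls as well. Across these 7 rows the 2 ratios had Pearson's r of 0.88 and Spearman's rho of 0.64, given as a description of rows that share a molecule and libraries. mt-Nd2 held 3.52% and 5.69% of the mitochondrially encoded signal in the knockouts, against 6.12% and 5.03% in the controls, and mt-Co1 held 46.6% and 43.5% in the knockouts, against 42.6% and 43.6% in the controls.

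The remaining rows of the mitochondrial genome had few reads. mt-Co2, the complex IV subunit that receives electrons from cytochrome c (7013 to 7696), had 3.10 and 4.46 CPM in the knockouts, against 6.62 and 5.67 CPM in the controls, from 47 to 102 reads per library. The groups did not overlap, and the log2 fold change of −0.65 (SE 0.23) had a limma adjusted p of 0.892. mt-Atp6, the proton-channel subunit of complex V (7927 to 8607), had 1.98 and 5.76 CPM in the knockouts, against 4.94 and 3.64 CPM in the controls. mt-Co3 (8607 to 9390) had 0.792 and 2.61 CPM in the knockouts, against 2.34 and 1.40 CPM in the controls. For both the groups overlapped, at log2 fold changes of −0.27 (SE 0.41) and −0.21 (SE 0.44). mt-Atp8, whose end overlaps the start of mt-Atp6 (7766 to 7969), had 7 and 9 reads in the knockouts and 15 and 10 reads in the controls and was not tested.

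Except for mt-Atp8, the low rows are genes that the annotation holds again, base for base, on chromosome 1. The labels give paired reads of 45 bases, and every 45-base window of each transcript was therefore looked up in the transcripts of all other genes in GENCODE release M21. For mt-Co2 100% of windows recurred in another annotated gene, for mt-Co3 99.9%, for mt-Atp6 99.5% and for mt-Nd3 98.0%. mt-Nd4 shared 62.4% of its windows and mt-Co1 53.8%, mt-Nd5 and mt-Nd2 9.66% and 9.15%, and mt-Cytb 0.273%. mt-Nd1, mt-Nd6 and mt-Atp8 shared 0. The lookup covered annotated transcripts alone, so a share of 0 does not show that a sequence occurs nowhere else in the genome. Per kb of transcript, the level averaged 7.26 CPM for mt-Co2, 5.99 CPM for mt-Atp6, 2.28 CPM for mt-Co3 and 135 CPM for mt-Nd3, while the 7 rows of 100 CPM or more averaged 996 to 6744 CPM per kb.

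**Figure D3:**
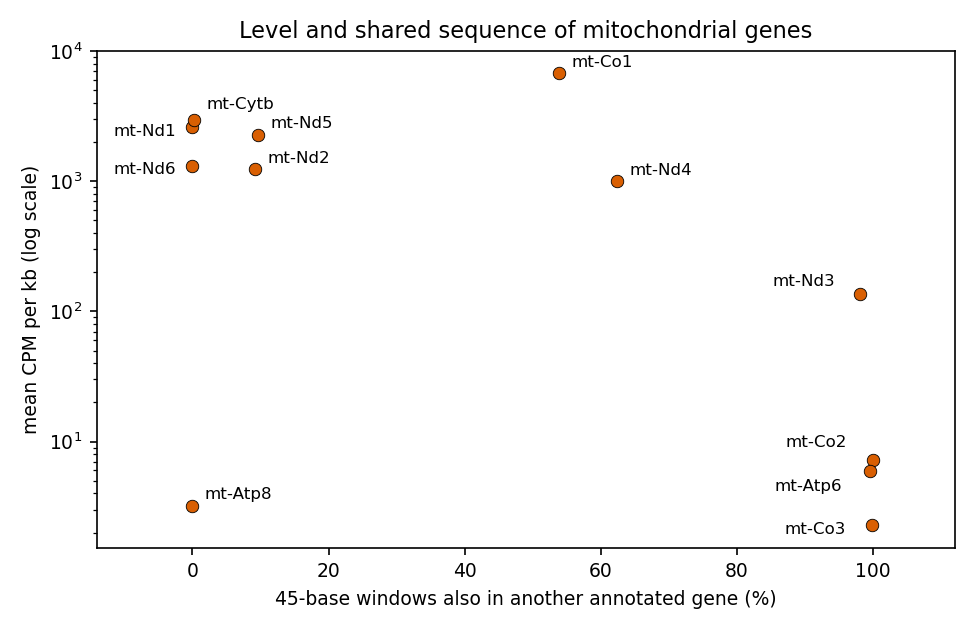
Mean level over the 4 libraries in CPM per kb (log axis) against the share of 45-base windows that recur in another annotated gene, with 1 point for each mitochondrially encoded row. The 4 rows at 98.0% or more have at most 135 CPM per kb, and mt-Atp8 is low at 0% shared. Sequence outside annotated transcripts was not searched.

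The copies lie within 4663 bases of the minus strand of chromosome 1 (24611535 to 24616197, GRCm38), where the annotation lists 6 unprocessed pseudogenes. Gm28661 matched mt-Co2 over 681 aligned bases with 0 mismatches, Gm10925 matched mt-Atp6 over 678 and Gm28437 matched mt-Co3 over 783, both with 0 mismatches. Gm28438 matched 342 bases of mt-Nd3 and Gm28439 matched 876 bases of mt-Nd4, again with 0 mismatches. The first bases of mt-Co2 and of its copy are shown because a read from one cannot be assigned by sequence, each 5′ to 3′ on its own coding strand, chrM:7013-7072 and chr1:24615506-24615565 in GRCm38.
mt-Co2: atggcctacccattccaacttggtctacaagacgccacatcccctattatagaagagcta
Gm28661: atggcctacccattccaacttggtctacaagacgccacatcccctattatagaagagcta
Gm29216 matched the last 483 bases of mt-Co1 but for the substitution A1066T, counted from 1 at the first base of mt-Co1. It is shown in capitals in the stretch that holds it, chrM:6390-6449 and chr1:24616129-24616188.
mt-Co1: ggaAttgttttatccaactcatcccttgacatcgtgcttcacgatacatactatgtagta
Gm29216: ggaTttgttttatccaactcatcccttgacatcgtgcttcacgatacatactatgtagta
Gm13340 on chromosome 2 (22588103 to 22589647) matched all 1545 bases of mt-Co1 with 37 mismatches. No gene is annotated in the 233 bases of chromosome 1 between Gm10925 and Gm28661 (24614652 to 24614884), where the mitochondrial genome has 230 bases between mt-Co2 and mt-Atp6, most of them mt-Atp8. The sequence of these 233 bases was not compared with mt-Atp8. The copies themselves are not analysed here. The treatment of reads that match several places is not stated in these sources, and its part in the low levels was not tested. Between-library differences in these rows are therefore reported as uncertain. The median log2 fold change was −0.46 both for the mitochondrially encoded rows with over 50% of windows of their own and for those of 100 CPM or more, a choice made after these values were seen.

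Nuclear encoded transcripts differed little between genotypes. The median log2 fold change of the 78 tested rows was 0.03, with 46 positive and 32 negative, and it ran between −0.054 without control 1 and 0.10 without control 2. The 95% confidence interval lay within ±0.5 on the log2 scale for 75 of 78 rows and within ±1 for all 78. These intervals use a variance drawn toward that of other genes and do not cover shifts that the rows of a library share. A bound of ±0.5 is also wide beside the median of 0.03. Of the mitochondrially encoded rows, 0 of 11 intervals lay within ±0.5 and 2 within ±1. The highest over the lowest library was 1.18-fold in the median nuclear encoded row and 2.22-fold in the median mitochondrially encoded row. At an unadjusted limma p under 0.05 there were 2 of the 78 nuclear encoded rows, a share below the 4.9% of all tested genes. Both were of complex I, which holds 36 of the 78.

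The libraries nevertheless left a mark on the nuclear encoded rows, in another order than on the mitochondrially encoded ones. Control 1 was below control 2 in 74 of 79 rows, beside 50.4% of all tested genes, and was the lowest of the 4 libraries in 53. Knockout 1 was below knockout 2 in 62 of 79 rows, beside 50.1% of all tested genes. The sizes were small, with a median absolute difference on the log2 scale of 0.10 between the knockouts and 0.17 between the controls, beside 0.15 and 0.14 over all tested genes. The same differences in the mitochondrially encoded rows were 1.02 and 0.44.

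**Figure D4:**
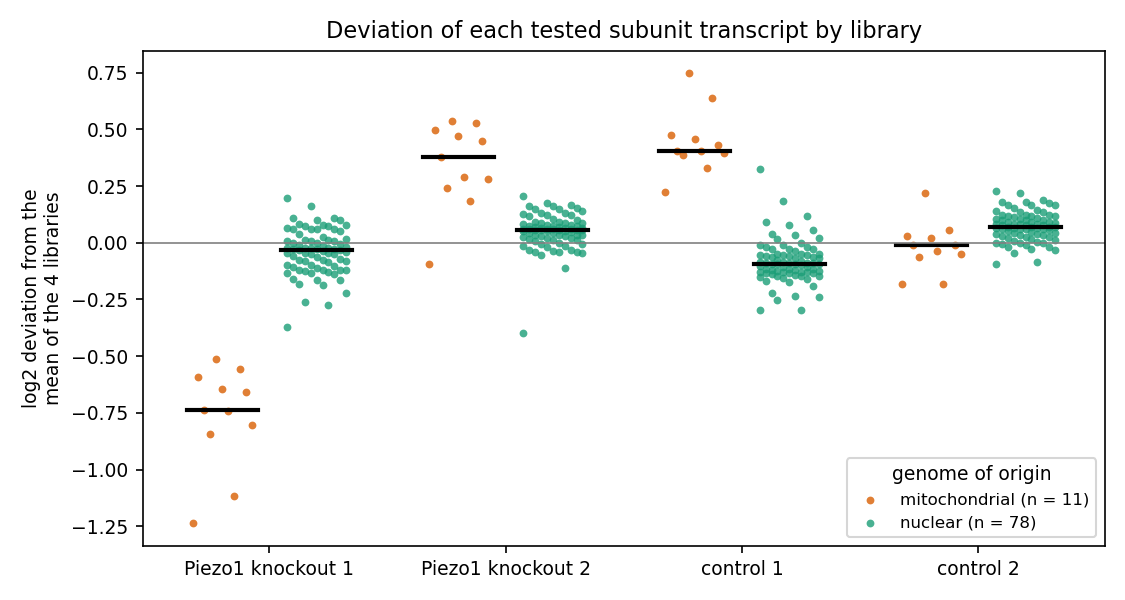
Deviation of each tested member from its own mean over the 4 libraries on the log2 scale, by library, with 1 point per row and black lines at the medians. The mitochondrially encoded medians are −0.74 and 0.38 in the knockouts and 0.41 and −0.01 in the controls, while the nuclear encoded medians are −0.03 and 0.06 in the knockouts and −0.09 and 0.07 in the controls.

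Complex I, which takes electrons from NADH, held both of those rows. Ndufa12, an accessory subunit of its peripheral arm (chromosome 10, 94198720 to 94221443), had 42.7 and 54.0 CPM in the knockouts, against 63.0 and 65.0 CPM in the controls. Both knockouts were below both controls, with a log2 fold change of −0.41 (SE 0.13, limma adjusted p = 0.781). Ndufs1, the largest core subunit and a carrier of iron-sulfur clusters near the NADH entry site (chromosome 1, 63143596 to 63176833), had 358 and 384 CPM in the knockouts, against 312 and 324 CPM in the controls. Both knockouts were above both controls, with a log2 fold change of 0.22 (SE 0.09, limma adjusted p = 0.989).

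Ndufa13, an accessory subunit also known as GRIM-19, had 148 and 144 CPM in the knockouts, against 121 and 140 CPM in the controls (log2 fold change 0.16, SE 0.10), and 29.7% of its 45-base windows recurred in other genes. Over the 36 nuclear encoded rows of complex I the median was 0.03 and 20 were positive. It was −0.066 without knockout 2, −0.060 without control 1 and 0.11 without control 2. The 7 nuclear encoded core subunits ran from −0.09 to 0.22 with a median of 0.12, the 29 accessory ones from −0.41 to 0.16 with a median of 0.0012, and 0 were called. Ndufb1-ps carries a pseudogene suffix and is annotated as a long non-coding RNA from a bidirectional promoter, and it had 48.0 and 50.4 CPM in the knockouts and 46.4 and 53.4 CPM in the controls.

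**Figure D5:**
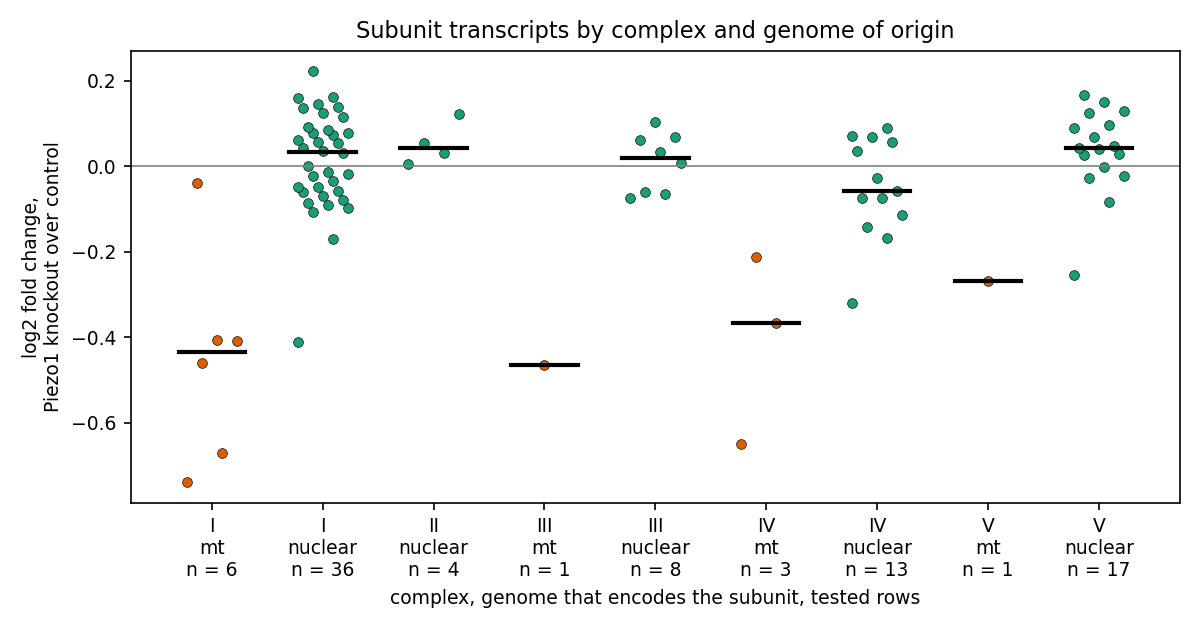
Log2 fold change, Piezo1 knockout over control, of each tested member by complex and by the genome that encodes it, with 1 point per row, black lines at the medians and the number of rows under each column. Nuclear encoded medians lie between −0.06 in complex IV and 0.04 in complexes II and V, and every mitochondrially encoded point is below 0 by limma.

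All 4 subunits of complex II, succinate dehydrogenase, are nuclear encoded. Sdha, the flavoprotein that oxidises succinate, had 1341 and 1518 CPM in the knockouts, against 1296 and 1325 CPM in the controls. Its groups did not overlap, at a log2 fold change of 0.12 (SE 0.12). Sdhb, the iron-sulfur subunit, had 280 and 307 CPM in the knockouts and 283 and 302 CPM in the controls. The membrane anchor Sdhc had 239 and 223 CPM in the knockouts, against 201 and 246 CPM in the controls. Its partner Sdhd had 213 and 227 CPM in the knockouts, against 198 and 233 CPM in the controls. In these 3 subunits the groups overlapped. The median of the 4 rows was 0.04, at −0.064 without control 1 and 0.14 without control 2.

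Complex III passes electrons from ubiquinol to cytochrome c. Its core subunit Uqcrc1 had 558 and 600 CPM in the knockouts, against 552 and 579 CPM in the controls, and the core subunit Uqcrc2 had 291 and 301 CPM in the knockouts, against 278 and 290 CPM in the controls. Uqcrfs1, the Rieske iron-sulfur protein, had 314 and 324 CPM in the knockouts, against 292 and 317 CPM in the controls. The 8 nuclear encoded rows lay between −0.07 and 0.10 on the log2 scale, with 5 positive and a median of 0.02, which was −0.024 without control 1 and −0.0033 under scaling by plain library totals, while mt-Cytb of the same complex was at −0.47. Uqcrq, a small subunit, had the highest value, with 238 and 242 CPM in the knockouts and 214 and 234 CPM in the controls. Uqcrb, another small subunit, with 28.2% of windows shared, had 333 and 297 CPM in the knockouts and 296 and 363 CPM in the controls.

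Complex IV, cytochrome c oxidase, had a nuclear encoded median of −0.06 over 13 tested rows, with 5 positive. Without knockout 1 it was 0.077 and without control 2 it was 0.028, so the sign of this median rests on single libraries. Cox6b1, a subunit facing the intermembrane space, had 73.6 and 76.7 CPM in the knockouts, against 80.9 and 88.1 CPM in the controls. Its groups did not overlap, at a log2 fold change of −0.17 (SE 0.10, limma adjusted p = 0.99975). Cox5b had 359 and 381.2 CPM in the knockouts, against 381.7 and 419 CPM in the controls, also without overlap. Cox4i1, the general isoform of subunit 4, had 504 and 535 CPM in the knockouts, against 476 and 539 CPM in the controls. Ndufa4, first assigned to complex I and later found in complex IV, had 108 and 143 CPM in the knockouts and 134 and 140 CPM in the controls.

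Where both a general and a tissue form of a complex IV subunit had a row, the general form had the higher level. Cox7a2, the widely expressed form of subunit 7a, averaged 61.0 CPM per kb, while Cox7a1, the form of heart and skeletal muscle, averaged 4.95 CPM per kb. Cox7a1 had 2.77 and 1.85 CPM in the knockouts, against 3.38 and 2.59 CPM in the controls, and Cox7a2 had 53.4 and 58.8 CPM in the knockouts, against 54.9 and 63.3 CPM in the controls. Cox7a2l, a related protein that joins complexes III and IV into supercomplexes, had 163 and 161 CPM in the knockouts and 155 and 184 CPM in the controls. Cox6b2, the testis form of subunit 6b, had 7 and 4 reads in the knockouts and 0 and 11 reads in the controls and was not tested, and the 0 of control 1 allows up to 0.195 CPM. Cox6a1 and Cox8a, the general forms of subunits 6a and 8, averaged 288 and 269 CPM per kb. Cox4i2, Cox6a2 and Cox8b had no row, so forms of subunits 4, 6a and 8 cannot be compared.

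Complex V held the most abundant nuclear encoded members. Atp5b, the catalytic beta subunit, had 2399 and 2510 CPM in the knockouts, against 2254 and 2519 CPM in the controls. Atp5a1, the alpha subunit, had 2204 and 2177 CPM in the knockouts, against 1924 and 2096 CPM in the controls, and its groups did not overlap (log2 fold change 0.13, SE 0.12). Per kb these led the nuclear encoded rows, at 670 CPM for Atp5a1 and 571 CPM for Atp5b, both under the 996 CPM per kb of mt-Nd4, the lowest of the 7 abundant mitochondrially encoded rows. Lengths are all annotated exons of a gene, so a gene with rarely used exons reads low on this scale.

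Atp5k, subunit e of the membrane part, had 105 and 127 CPM in the knockouts, against 134 and 141 CPM in the controls. Both knockouts were below both controls, at a log2 fold change of −0.26 (SE 0.11, limma adjusted p = 0.99975), the lowest of the nuclear encoded rows of the complex. Atp5mpl, a small proteolipid, had 247 and 241.0 CPM in the knockouts and 196 and 241.8 CPM in the controls, and Atp5e, the epsilon subunit, had 61.3 and 51.8 CPM in the knockouts and 44.8 and 57.3 CPM in the controls. Both overlapped. The c subunit of the proton-driven ring comes from 3 genes that encode the same mature protein. Atp5g3 averaged 367 CPM (168 per kb), Atp5g1 39.1 CPM (7.97 per kb) and Atp5g2 9.20 CPM (5.49 per kb). Annotated exons of Atp5g1 sum to 4912 bases, against 2181 for Atp5g3, which lowers its level per kb. Of the 45-base windows, 38.8% recurred in other genes for Atp5g2, 11.9% for Atp5g1 and 0% for Atp5g3, so the level of Atp5g2 is uncertain. Atp5g3 had 382 and 375.5 CPM in the knockouts, against 334 and 375.6 CPM in the controls. Of the 17 nuclear encoded rows 12 were positive, with a median of 0.04, which was −0.013 without knockout 2, −0.034 without control 1 and 0.12 without control 2.

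Many promoters of nuclear encoded subunits are known to bind NRF1, a factor whose site is a GC-rich palindrome. The letters GCGC, then A, then any base, then GCGC were searched on both strands, with no other motif searched, in RefSeq promoters of GRCm38.p6 that run 250 bases before to 50 after the start. They occurred in 17 of the 65 nuclear encoded members with a promoter there (26.2%), beside 5.19% of 27025 symbols in that table and 11.6% of the 10000 that also have a row in the expression table. By complex they were in 7 of 31 members of complex I, 2 of 3 of complex II, 1 of 5 of complex III, 1 of 12 of complex IV and 6 of 14 of complex V. The median log2 fold change was 0.03 in the tested members with the motif (17 rows) and 0.03 in those without it (47 rows). The 110 bases before the start are shown for a promoter with several matches and a pair with 1, from genes that were higher in both knockouts (Sdha), overlapped (Sdhd) or were lower in both knockouts (Atp5k), all without passing the test, with the motif in capitals. All are on the minus strand, chr13:74350241-74350350, chr9:50603850-50603959 and chr5:108434400-108434509.
Sdha: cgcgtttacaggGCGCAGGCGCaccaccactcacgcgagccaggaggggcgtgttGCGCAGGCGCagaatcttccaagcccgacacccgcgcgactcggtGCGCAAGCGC
Sdhd: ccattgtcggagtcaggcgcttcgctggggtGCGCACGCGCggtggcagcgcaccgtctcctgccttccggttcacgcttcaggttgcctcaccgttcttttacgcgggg
Atp5k: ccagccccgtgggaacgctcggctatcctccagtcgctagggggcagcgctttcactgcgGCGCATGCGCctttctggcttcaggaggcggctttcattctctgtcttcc
A match describes letters, not binding.

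No regulator of mitochondrial biogenesis was called. Ppargc1b, a coactivator that drives mitochondrial genes in osteoclasts, had 109 and 134 CPM in the knockouts and 124 and 119 CPM in the controls. Esrra, an orphan receptor it partners, had 59.6 and 68.3 CPM in the knockouts and 65.4 and 73.3 CPM in the controls. Of the 9 tested regulators 0 were called, with a median log2 fold change of −0.05 and the transcription factors Nrf1 and Gabpa at −0.05 and 0.00. Tfam, which packages and transcribes the mitochondrial genome, was at 0.04. It is 1 of the 16 genes of mitochondrial DNA maintenance and transcription, which had a median of 0.00095. The 18 genes of mitochondrial RNA processing and stability had a median of 0.01, with 0 called in either list. Of these 18, 6 were higher and 0 lower in the knockouts without overlap, beside 16.5% and 15.4% of all tested genes.

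The lists for building and maintaining the organelle had 0 calls as well. Among 78 mitochondrial ribosomal proteins 0 were called and the median was −0.0081, with 11 lower and 14 higher without overlap, shares near the 15.4% and 16.5% of all tested genes. Assembly factors of complex I (16 genes), of complexes II, III and V (13) and of complex IV (21) had medians of 0.01, 0.07 and 0.0011 and 0 called. Protein import and carrier genes (24) had a median of −0.0045 and genes of mitophagy and dynamics (11) one of 0.08, with 0 called. In the mitophagy and dynamics list 4 were higher and 0 lower without overlap, beside 16.5% and 15.4% of all tested genes. Mfn2, a gene of that list which fuses outer membranes, had 219 and 224 CPM in the knockouts, against 206 and 202 CPM in the controls. The electron carriers and subunits outside the symbol rule (8) and the antioxidant and uncoupling genes (8) had medians of 0.02 and −0.0046 and 0 called. At an unadjusted p under 0.05 limma had 0 genes in each of these lists.

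Lists that follow RNA quality and other cell types were read in the same libraries. Nuclear-retained RNAs and histone mRNAs, a list of RNA quality with 6 tested members, were lower in both knockouts for all 6, with a median of −0.27, 0 called and 4 at an unadjusted p under 0.05, beside 15.4% of all tested genes lower without overlap and 4.9% at that p. Malat1, a nuclear long non-coding RNA, had 1869 and 1783 CPM in the knockouts, against 2227 and 2402 CPM in the controls (limma adjusted p = 0.934), and the list summed to 2751 and 2572 CPM in the knockouts, against 3272 and 3331 CPM in the controls. By this sum and in most of its members knockout 2 was the lowest library, but the knockouts lay close together. Hist1h2bc went the other way, with 48.4 CPM in knockout 1 and 53.9 CPM in knockout 2. The 8 stromal and fibroblast markers summed to 1213 and 1097 CPM in the knockouts, against 1703 and 2116 CPM in the controls. All 8 had a negative log2 fold change, with a median of −0.54. For 5 the knockouts were lower without overlap and 5 had an unadjusted limma p under 0.05, beside 15.4% and 4.9% of all tested genes. limma called 0 and DESeq2 called 4, beside 0.161% and 0.535% of all genes. The 10 macrophage and osteoclast markers summed to 58462 and 72226 CPM in the knockouts, against 60031 and 57132 CPM in the controls. All 10 had a positive log2 fold change, with a median of 0.15, and limma called 0. For 2 the knockouts were higher without overlap, beside 16.5% of all tested genes, and 1 had an unadjusted limma p under 0.05. Neutrophil markers summed to 41.8 and 37.2 CPM in the knockouts and 33.8 and 65.2 CPM in the controls. The part of these differences in the levels of the members was not tested.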

How the data were processed

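The authors deposited 1 table of 12799 genes by 4 libraries, as a normalised signal. STAR, Subread's featureCounts, edgeR and the build mm10 (GRCm38) are listed, with no version or role, in the submitters' processing notes. The sources used here do not state the annotation release, the strand setting, the handling of reads with several matches or the filter on low genes. Dividing each column by its smallest positive value gave whole reads for 100% of values (within 0.001), and TMM-scaled CPM from those reads matched the deposited signal to within 4.9e-11.

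The 11781 genes that reached 1 CPM in at least 2 libraries were tested with limma 3.58.1 (intensity trend) on log2(CPM + 0.5), 2-sided, with genotype as the sole term and Benjamini-Hochberg adjustment over all of them. Fold changes on this scale understate those of low genes. edgeR 4.0.16 and DESeq2 1.42.0 were run on the recovered reads. The limma step was checked on simulated reads, drawn independently for each gene with the same small spread. That check does not cover rows that move together or vary as much between replicates as the mitochondrially encoded ones. Levels are given per library and fold changes with their SE. limma draws the variance of each row toward that of genes of similar level, with 5.52 of 7.52 degrees of freedom from other genes. Its SEs, intervals and p-values therefore do not measure a row's own spread between these 4 libraries alone. For rows that vary more than such genes, as the abundant mitochondrially encoded ones do, they understate that spread. Limits from a count of 0 (3 reads) cover counting error only.

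Named were every mitochondrially encoded row, in each complex the 3 nuclear encoded rows with the smallest p and the 2 with the highest level, isoform sets and the 5 named regulators. Of the members with the smallest p in the other lists, only some are given by name. A gene that the rule takes is not reported here, though it enters the counts. Ndufb1-ps and Ctsk were named after their values were seen. The members and lists were chosen with earlier results of these data known. Positions, exon lengths and windows came from GENCODE M21 on GRCm38, in which 89 of 91 members matched 1 record. Neither Atp5md nor Atp5o did, and they have no length or window value. R was 4.3.3 and Python 3.11.15.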

Additional observations from a re-analysis of the deposited data

How the results depend on the processing

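Members called by the test across all genes numbered 0 under every alternative that kept all 4 libraries. Without knockout 2, where knockout 1 stands alone, some mitochondrially encoded rows passed the threshold, and calls of such a fit cannot be weighed. Of 653 alternative fits of 41 named members, 35 had the other sign, in 23 members. The median of complex II ran from −0.064 to 0.14 and that of nuclear encoded complex IV from −0.12 to 0.077 with 1 library left out. The cause was not tested. Plain library totals shifted all log2 fold changes by −0.023, and other scalings by less. Under plain totals the median of nuclear encoded complex III was −0.0033, Sdhb was at −0.017, Itgax at −0.0027 and Gabpa at −0.024. mt-Nd3 was at 0.031 with edgeR and 0.026 with DESeq2. Gabpa was at −0.00031 with DESeq2 size factors, −0.00019 with scaling without the mitochondrially encoded rows, −0.0016 with edgeR and −0.0024 with DESeq2.

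With the replicate block, 0 members were called, while 89 genes of the whole table passed instead of 19. Deviations of same-numbered libraries had a correlation of −0.0016 over 11781 genes. In the nuclear encoded rows, replicate 1 was below replicate 2 in 62 of 79 for the knockouts and in 74 of 79 for the controls. The labels do not say that the numbers pair libraries, and these values cannot decide it, so no pairing was used in the main fit. DESeq2 called 63 genes, limma without a trend 4, and leaving out a library gave 7 to 76.

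With 1 library left out the log2 fold change changed sign within these ranges in mitochondrially encoded rows: mt-Atp6 −0.94 to 0.40, mt-Co1 −0.84 to 0.11, mt-Co3 −0.85 to 0.42, mt-Cytb −1.07 to 0.14, mt-Nd1 −0.97 to 0.052, mt-Nd2 −1.61 to 0.13, mt-Nd3 −0.53 to 0.45, mt-Nd4 −1.45 to 0.11, mt-Nd5 −0.85 to 0.035. In other genes the ranges were Atp5b −0.038 to 0.12, Atp5e −0.024 to 0.33, Atp5g1 −0.12 to 0.12, Atp5g2 −0.18 to 0.012, Cox4i1 −0.053 to 0.13, Cox6a1 −0.13 to 0.077, Cox7a2 −0.17 to 0.028, Cox7a2l −0.18 to 0.066, Etfdh −0.0025 to 0.24, Gabpa −0.050 to 0.050, Itgax −0.61 to 0.65, Mff −0.0014 to 0.21, Ndufa4 −0.34 to 0.058, Ndufab1 −0.38 to 0.16, Nrf1 −0.12 to 0.026, Perm1 −0.32 to 0.094, Ppargc1b −0.16 to 0.14, S100a9 −0.87 to 0.19, Sdhb −0.060 to 0.073, Sdhc −0.092 to 0.20, Sdhd −0.088 to 0.15, Tfam −0.0044 to 0.092, Uqcrb −0.21 to 0.087, Uqcrc1 −0.019 to 0.085. Depth limits Cox6b2 and mt-Atp8, which were not tested, and 2 libraries per genotype limit the rest. In mt-Atp6 the Poisson 95% limits of knockout 1 (1.34 to 2.83 CPM) and knockout 2 (4.72 to 6.97 CPM) did not overlap, so its libraries differed beyond counting error.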
